A study of Mus musculus with 8 samples.

Results

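The levels of 10 chromatin repressors that silence retroelements were followed over 8 Affymetrix arrays of mouse embryonic stem cells. The set comprised Trim28, Setdb1, Ehmt1, Ehmt2, Suv39h1, Suv39h2, Kdm1a, Atrx, Daxx and Hells, and every probe set annotated to 1 of these 10 genes was taken, whatever its values. Of the 10 genes, 9 had a probe set in the platform annotation, 24 probe sets in all out of 45037 without the control probe sets. Suv39h1 had none there and was not analysed here. The whole platform annotation names 18193 genes. All 24 probe sets passed the filter on low signal, which asked for 2 or more arrays at a log2 of 4 or above and left 43439 probe sets for testing. The arrays fell into 4 groups of 2: Rex-1 knockout cells without leukemia inhibitory factor (LIF), the same cells with LIF, J1 wild-type cells without LIF, and J1 cells with LIF. Rex-1 is the zinc finger protein encoded by Zfp42, and LIF is the cytokine that keeps mouse embryonic stem cells undifferentiated in culture. Both lines carry J1 as their source and grew in serum medium on gelatin, and how many knockout clones were used is not stated. The labels give 12 hours without LIF in wording shared by all 8 arrays. For the knockout cultures titled minus LIF, the growth text speaks of LIF being added, and group membership was taken from the title and the treatment text. Each group holds a first array and a second array, whose title ends in the letter r. The series text calls them biological replicates, and no label says what the letter marks. All p-values therefore rest on a spread between arrays that may be technical.

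Retroelements are genomic repeats of viral or viral-like origin, and embryonic stem cells hold many of them silent through repressive chromatin rather than through DNA methylation alone. KRAB zinc finger proteins bind the repeats and recruit TRIM28, which brings SETDB1 to methylate histone H3 on lysine 9 (H3K9). EHMT1 and EHMT2 (GLP and G9a) form the main H3K9 dimethyltransferase, SUV39H1 and SUV39H2 add the trimethyl mark at pericentric repeats and intact elements, and KDM1A (LSD1) removes methyl groups from H3 lysine 4. ATRX and DAXX deposit the histone variant H3.3 in heterochromatin, and HELLS (LSH) remodels nucleosomes so that repeats can be methylated. Retroelement transcripts themselves were not analysed here, and the values below are transcript levels of the repressors.

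Rex-1 is related to YY1, a factor whose recognition motif has the core letters AANATGGC. This motif was searched on both strands (GCCATNTT on the other) in RefSeq promoter windows of assembly GRCm38.p6, each 300 bases long, from 250 bases before to 50 bases after an annotated start. All 10 genes matched the table by symbol, in 14 windows. A match lay in 7 of the 14 windows and in 5 of the 10 genes, Suv39h1, Suv39h2, Ehmt2, Atrx and Daxx, and the 3 Daxx windows overlap one another. Over the whole table the motif was in 6.05% of 32851 windows and in 6.96% of 27025 genes. The windows with a match downstream of the start are printed below, 1 for each of 3 genes, 5′ to 3′ on the gene's strand with the matched letters in capitals. The Suv39h2 window is chr2:3474937-3475236 (minus strand, match from base 38 after the start), the Atrx window is chrX:105929323-105929622 (minus strand, base 34), and the Daxx window is chr17:33909195-33909494 (plus strand, base 3 and a further match from base -126). These are matches of letters only, and no binding was measured.
Suv39h2: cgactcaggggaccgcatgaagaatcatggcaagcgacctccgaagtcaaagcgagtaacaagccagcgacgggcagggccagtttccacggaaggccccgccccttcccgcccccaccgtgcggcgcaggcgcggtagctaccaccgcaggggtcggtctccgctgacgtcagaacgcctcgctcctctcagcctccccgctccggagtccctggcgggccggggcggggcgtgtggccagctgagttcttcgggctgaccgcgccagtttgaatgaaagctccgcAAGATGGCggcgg
Atrx: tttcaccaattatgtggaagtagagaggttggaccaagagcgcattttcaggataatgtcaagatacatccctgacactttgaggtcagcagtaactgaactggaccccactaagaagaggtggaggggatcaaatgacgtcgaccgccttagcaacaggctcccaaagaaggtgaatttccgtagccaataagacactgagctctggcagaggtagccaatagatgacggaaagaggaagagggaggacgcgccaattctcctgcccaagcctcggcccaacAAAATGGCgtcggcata
Daxx: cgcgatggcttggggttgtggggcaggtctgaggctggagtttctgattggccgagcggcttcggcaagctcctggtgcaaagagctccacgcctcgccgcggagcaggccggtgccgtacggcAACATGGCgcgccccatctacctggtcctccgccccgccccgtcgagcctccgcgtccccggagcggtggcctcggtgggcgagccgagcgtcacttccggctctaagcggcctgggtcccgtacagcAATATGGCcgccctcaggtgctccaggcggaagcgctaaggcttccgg

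The targeted gene was looked at first. Zfp42 had log2 intensities of 14.07 and 14.03 in knockout cells without LIF and 14.14 and 14.08 with LIF, against 14.15 and 14.33 in J1 cells without LIF and 14.17 and 14.51 with LIF. The averaged difference, knockout minus J1, was -0.21 (SE 0.16), and limma did not call it (adjusted p = 0.985). Its signal was high on all 8 arrays, and no source used here places this probe set inside or outside the deletion, so the knockout is taken from the labels alone. Embryonic stem cell markers were high throughout: the mean log2 of 8 markers was 12.8 to 13.1 in knockout-labelled arrays and 12.8 to 13.2 in J1 arrays. Zfp42 itself is 1 of these 8 and had the highest values. The lowest value of any of them was 10.80, for Esrrb. The mean of 9 fibroblast or feeder markers was 6.32 to 7.26 in knockout arrays and 6.56 to 8.10 in J1 arrays. Extraembryonic endoderm markers (8 genes) ran from 6.07 to 6.81 and from 5.68 to 6.36, trophoblast markers (6 genes) from 5.09 to 6.21 and from 5.42 to 6.37, and neural markers (4 genes) from 7.40 to 8.23 and from 8.12 to 8.40, each time in knockout and then J1 arrays. The part of other cell types in the results below was not tested, and in bulk RNA fewer cells of a type and less RNA per cell cannot be told apart. The median signal per array was 114.2 to 118.97 on first arrays and 122.43 to 143.5 on second arrays. The second knockout array with LIF stood apart, with 91.2% of probe sets at or over a log2 of 4, against 85.2% to 87.4% in the other arrays.

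None of the 24 repressor probe sets was called between knockout and J1 cells, between cultures without and with LIF, or for the interaction of both. Over all 43439 probe sets limma called 0% at an adjusted p under 0.05 in each of the 7 comparisons, so the count of 0 among the repressors equals the background. Without adjustment, p under 0.05 was reached by 1 of 24 for knockout against J1 with LIF (background 5.02%), by 0 without LIF (3.68%) and by 1 averaged over LIF (5.27%). For cultures without against with LIF the counts were 1 of 24 in J1 cells (3.61%), 0 in knockout cells (4.07%) and 0 averaged over the lines (4.02%), and for the interaction 0 (3.55%). The probe set counted 3 times is the same one, Suv39h2 1436561_at. No probe set had its 4 knockout arrays all above or all below its 4 J1 arrays, which 2.1% and 1.74% of all probe sets did. None had its arrays without LIF all above or all below those with LIF, against backgrounds of 1.02% and 1.33%.

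The genotype differences, knockout minus J1 averaged over LIF, had a median of -0.033 on the log2 scale over the 24 probe sets and 0.016 over all probe sets tested. Of the 24, 8 were positive and 16 negative, and 22 lay within 0.25 of 0. The 95% interval from limma stayed within 1 log2 unit of 0 on both sides for 19 of the 24, and held 0 for 23. Differences without minus with LIF, averaged over the lines, had a median of 0.038 against -0.0067 over all probe sets, with 17 positive and 7 negative. Here 18 intervals stayed within 1 log2 unit on both sides and all 24 held 0. A p that misses the threshold does not show equal levels, and the intervals give the sizes that remain possible with 2 arrays a group.

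**Figure D1:**
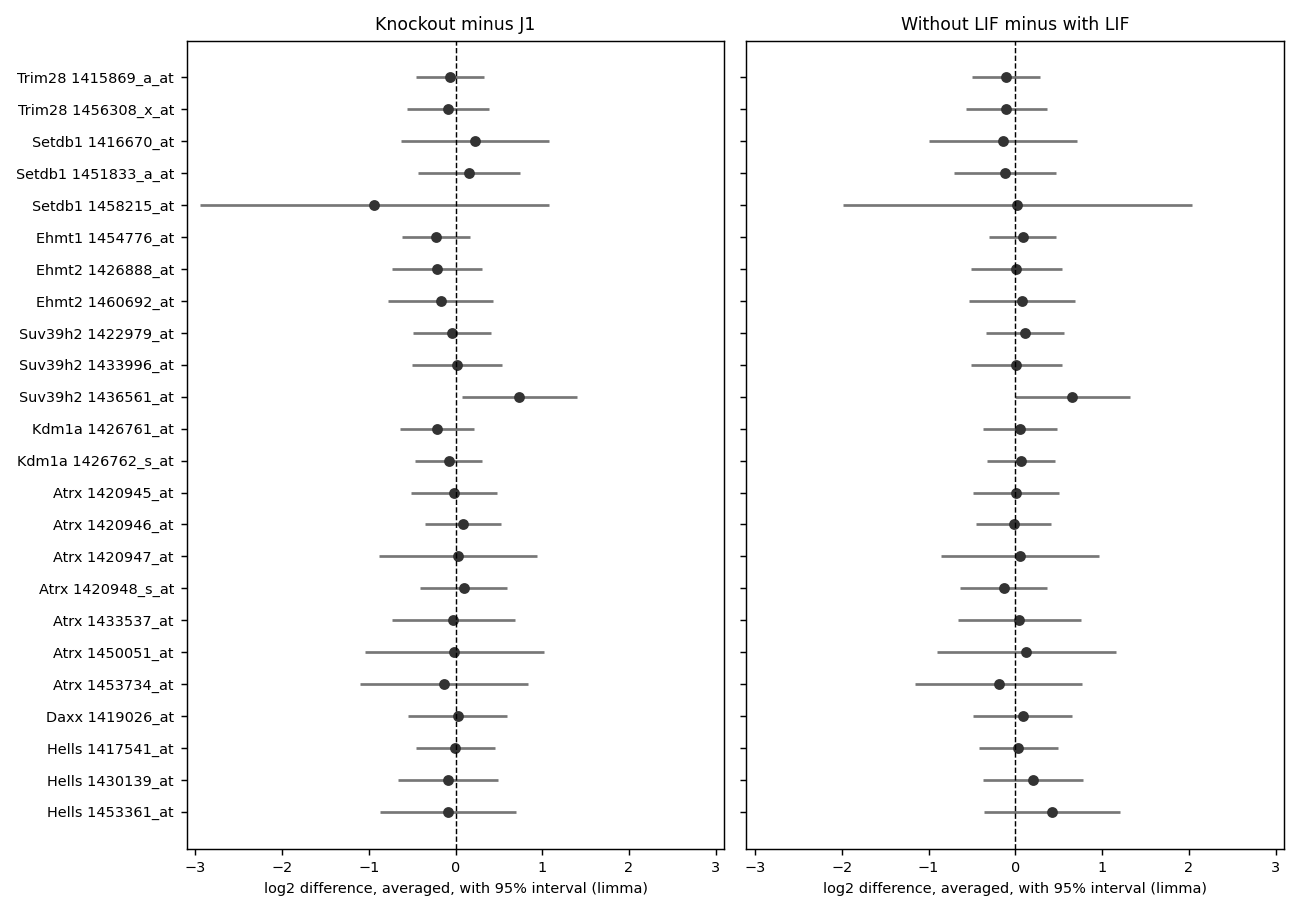
Averaged log2 differences of the 24 repressor probe sets with their 95% limma intervals, knockout minus J1 on the left and without minus with LIF on the right; the dashed line is 0. The genotype interval of Suv39h2 1436561_at, 0.07 to 1.40, is the only one of the 48 that does not hold 0 in the fit shown.

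Trim28, the corepressor that KRAB zinc finger proteins recruit, had closely spaced values. Probe set 1415869_a_at read 13.60 and 13.60 in knockout cells without LIF and 13.67 and 13.75 with LIF, against 13.70 and 13.63 in J1 cells without LIF and 13.62 and 13.91 with LIF. Probe set 1456308_x_at read 13.76 and 13.88 in knockout cells without LIF and 13.80 and 14.09 with LIF, against 13.84 and 14.01 and then 13.78 and 14.24 in J1 cells. Over all 8 arrays the genotypes overlapped on both probe sets, and the second J1 array with LIF was the highest of the 8 on each. Without LIF alone, the knockout arrays of 1415869_a_at lay below the J1 arrays. The genotype differences were -0.060 (SE 0.16) and -0.084 (SE 0.19). Both LIF differences were -0.11 (SE 0.16 and 0.19), below 0 where 17 of the 24 probe sets lay above, though that of 1456308_x_at was 0.0047 with quantile normalization.

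Setdb1, the H3K9 methyltransferase that TRIM28 brings to KRAB-bound repeats, was read by 3 probe sets that did not move alike. On 1416670_at the values were 9.77 and 10.71 in knockout cells without LIF and 10.06 and 10.78 with LIF, against 9.77 and 10.34 in J1 cells without LIF and 9.81 and 10.52 with LIF. The second array was the higher in all 4 groups, by 0.57 to 0.94, and the genotype difference of 0.22 (SE 0.35) was small beside that. On 1451833_a_at the knockout arrays read 10.80 and 11.10 without LIF and 10.85 and 11.35 with LIF, and the J1 arrays read 10.74 and 10.91 without LIF and 10.59 and 11.25 with LIF, a genotype difference of 0.16 (SE 0.24). The third, 1458215_at, had low signal, with 6.82 and 4.07 in knockout cells without LIF and 6.80 and 4.46 with LIF, against 6.18 and 6.98 and then 6.81 and 5.91 in J1 cells. Its genotype difference of -0.93 (SE 0.81, 95% interval -2.95 to 1.08) rested on the second knockout arrays: it was -2.18 among the second arrays and 0.31 among the first. LIF differences were -0.14, -0.12 and 0.021 in the same order of probe sets.

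Ehmt1 and Ehmt2, partners in the H3K9 dimethyltransferase, both had genotype differences below 0. Ehmt1 1454776_at read 11.01 and 10.89 in knockout cells without LIF and 11.07 and 10.84 with LIF, against 11.29 and 11.23 in J1 cells without LIF and 11.03 and 11.15 with LIF. Without LIF the 2 knockout arrays lay below the 2 J1 arrays, with means of 10.95 ± 0.08 and 11.26 ± 0.04 (SD, n = 2 each), whereas with LIF the groups overlapped. The same separation of 2 knockout arrays from 2 J1 arrays was seen for Trim28 1415869_a_at without LIF. It was also seen with LIF for Ehmt2 1426888_at and Kdm1a 1426761_at, and upwards for Suv39h2 1436561_at. Its share over all probe sets was not computed, so it carries no weight. The averaged Ehmt1 difference of -0.22 (SE 0.16, 95% interval -0.61 to 0.17) was not called (limma adjusted p = 0.985). Ehmt2 1460692_at read 11.59 and 11.06 in knockout cells without LIF and 11.39 and 10.91 with LIF, against 11.61 and 11.19 and then 11.65 and 11.19 in J1 cells. All 4 second arrays lay below all 4 first arrays there. Ehmt2 1426888_at read 9.64 and 9.10 in knockout cells without LIF and 9.23 and 9.21 with LIF, against 9.64 and 9.24 in J1 cells without LIF and 9.70 and 9.43 with LIF. The Ehmt2 genotype differences were -0.17 (SE 0.24) and -0.21 (SE 0.21), or -0.039 and -0.077 without the second knockout array lacking LIF, each smaller than its second-minus-first difference of -0.47 and -0.31. LIF differences were 0.084 for Ehmt1 and 0.076 and 0.013 for Ehmt2.

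Suv39h2 is one of the enzymes that add the H3K9 trimethyl mark. In the main fit, 1 of its 3 probe sets gave the only interval among the 48 averaged differences that excluded 0. The main fit used the filter at a log2 of 4 and no pseudocount. On 1436561_at the values were 7.64 and 8.12 in knockout cells without LIF and 7.44 and 7.84 with LIF, against 7.97 and 7.14 in J1 cells without LIF and 6.34 and 6.64 with LIF. The J1 arrays with LIF were the lowest 2 of the 8, and the other 3 groups overlapped. Group means were 7.88 ± 0.33, 7.64 ± 0.29, 7.56 ± 0.59 and 6.49 ± 0.21 (SD, n = 2 each) in that order. The difference between knockout and J1 cells was 1.15 with LIF (SE 0.38, 95% interval 0.21 to 2.09) and 0.32 without LIF (SE 0.38), and that between cultures without and with LIF was 1.07 in J1 cells (SE 0.38) and 0.24 in knockout cells (SE 0.38). The interaction itself was -0.83 (SE 0.54, 95% interval -2.16 to 0.51), so the effects in the 2 conditions were not shown to differ. For LIF averaged over the lines, 0 repressor probe sets had an unadjusted limma p under 0.05 in the main fit. The count was 1 with a mean log2 of at least 7, with quantile normalization, with the pseudocount of 16 and with the trended robust prior. On 1436561_at, averaged over LIF, the genotype difference was 0.74 (SE 0.27, limma adjusted p = 0.921). Its LIF difference, averaged over the lines, was 0.66 (SE 0.27, 95% interval -0.0088 to 1.32). Its unadjusted p for genotype was no longer under 0.05 with the replicate block, nor in 5 of the 8 fits that each left out 1 array: the second array of J1 cells lacking LIF, each of the pair of J1 arrays given LIF, and the second knockout array of both cultures. The knockout difference with LIF lost its p under 0.05 in 3 of these fits, those lacking a J1 array given LIF or the second knockout array given LIF. The LIF difference in J1 cells, with an interval of 0.13 to 2.01, lost it in 3 of them, those lacking the first J1 array without LIF or a J1 array given LIF, and when only the 4 arrays compared were fitted.

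The other Suv39h2 probe sets did not share this pattern. On 1422979_at the knockout arrays read 9.82 and 9.92 without LIF and 9.91 and 9.67 with LIF, and the J1 arrays read 9.72 and 10.15 without LIF and 9.76 and 9.84 with LIF. On 1433996_at the knockout arrays read 9.92 and 9.36 without LIF and 9.79 and 9.34 with LIF, and the J1 arrays read 9.50 and 9.62 without LIF and 9.59 and 9.63 with LIF. Their genotype differences were -0.042 (SE 0.18) and 0.017 (SE 0.21), with 95% intervals of -0.49 to 0.41 and -0.51 to 0.54, and their LIF differences were 0.11 and 0.010. The 3 probe sets of the gene therefore gave different values for the same RNA, and no source used here says which transcripts each one reads.

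Kdm1a, the H3 lysine 4 demethylase, had genotype differences below 0 on both probe sets. On 1426761_at the values were 11.29 and 11.15 in knockout cells without LIF and 11.29 and 11.06 with LIF, against 11.60 and 11.26 in J1 cells without LIF and 11.44 and 11.32 with LIF. The knockout range reached 11.29 and so overlapped the lowest J1 array, at 11.26, while the other 3 J1 arrays lay above it. The difference was -0.21 (SE 0.17, 95% interval -0.63 to 0.22). On 1426762_s_at the knockout arrays read 12.88 and 12.82 without LIF and 12.90 and 12.68 with LIF, and the J1 arrays read 13.00 and 12.86 without LIF and 12.92 and 12.81 with LIF, a difference of -0.078 (SE 0.16), or -0.024 without the second knockout array with LIF. LIF differences were 0.051 and 0.063.

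Atrx and Daxx act together as the chaperone of H3.3 in heterochromatin. The single Daxx probe set, 1419026_at, read 10.78 and 11.34 in knockout cells without LIF and 10.74 and 11.26 with LIF, against 11.21 and 10.91 in J1 cells without LIF and 10.84 and 11.06 with LIF. The spread within knockout groups spanned the J1 arrays, and the genotype difference was 0.026 (SE 0.23, 95% interval -0.54 to 0.60). The LIF difference was 0.083.

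Atrx, on the X chromosome, was read by 7 probe sets, and their genotype differences ran from -0.13 to 0.10. On 1433537_at the values were 11.78 and 10.97 in knockout cells without LIF and 11.77 and 11.00 with LIF, against 11.52 and 11.39 in J1 cells without LIF and 11.54 and 11.18 with LIF. On 1450051_at they were 9.13 and 9.36 in knockout cells without LIF and 8.91 and 9.47 with LIF, against 8.67 and 10.00 and then 8.55 and 9.71 in J1 cells. The first of these was lower on every second array and the other higher on every second array. On 1420947_at the knockout arrays read 8.28 and 8.93 without LIF and 8.43 and 8.99 with LIF, and the J1 arrays read 8.21 and 9.26 without LIF and 8.09 and 8.95 with LIF. On 1453734_at the knockout arrays read 9.72 and 8.68 without LIF and 9.91 and 8.68 with LIF, and the J1 arrays read 8.92 and 9.55 without LIF and 9.57 and 9.48 with LIF. On that probe set the first knockout arrays were the highest of the 8 and the second knockout arrays the lowest. The remaining 3, 1420945_at, 1420946_at and 1420948_s_at, ran from 8.68 to 9.07, from 8.82 to 9.05 and from 9.40 to 9.79 in knockout arrays, against 8.60 to 9.16, 8.65 to 8.96 and 9.11 to 9.61 in J1 arrays. Their genotype differences were -0.016 (SE 0.20), 0.088 (SE 0.18) and 0.096 (SE 0.20), and the widest 95% interval among the 7, that of 1450051_at, was -1.05 to 1.02. LIF differences over the 7 ran from -0.19 to 0.13, 4 of them positive.

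Hells, the remodeller that opens repeats to DNA methylation, had genotype differences between -0.088 and -0.0041, the last of which was 0.012 with quantile normalization. On 1417541_at the values were 13.09 and 12.78 in knockout cells without LIF and 13.16 and 12.72 with LIF, against 12.94 and 13.02 in J1 cells without LIF and 12.93 and 12.88 with LIF. On 1430139_at they were 11.11 and 11.28 in knockout cells without LIF and 10.77 and 11.28 with LIF, against 11.10 and 11.52 and then 10.81 and 11.35 in J1 cells. Genotypes overlapped on each. On 1453361_at the knockout arrays read 9.05 and 8.34 without LIF and 8.50 and 7.61 with LIF, and the J1 arrays read 8.27 and 8.86 without LIF and 8.56 and 8.16 with LIF. All 3 probe sets had a positive LIF difference, 0.034 (SE 0.18), 0.20 (SE 0.23) and 0.42 (SE 0.32), none of them called, and the last was 0.20 without the second knockout array with LIF.

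**Figure D2:**
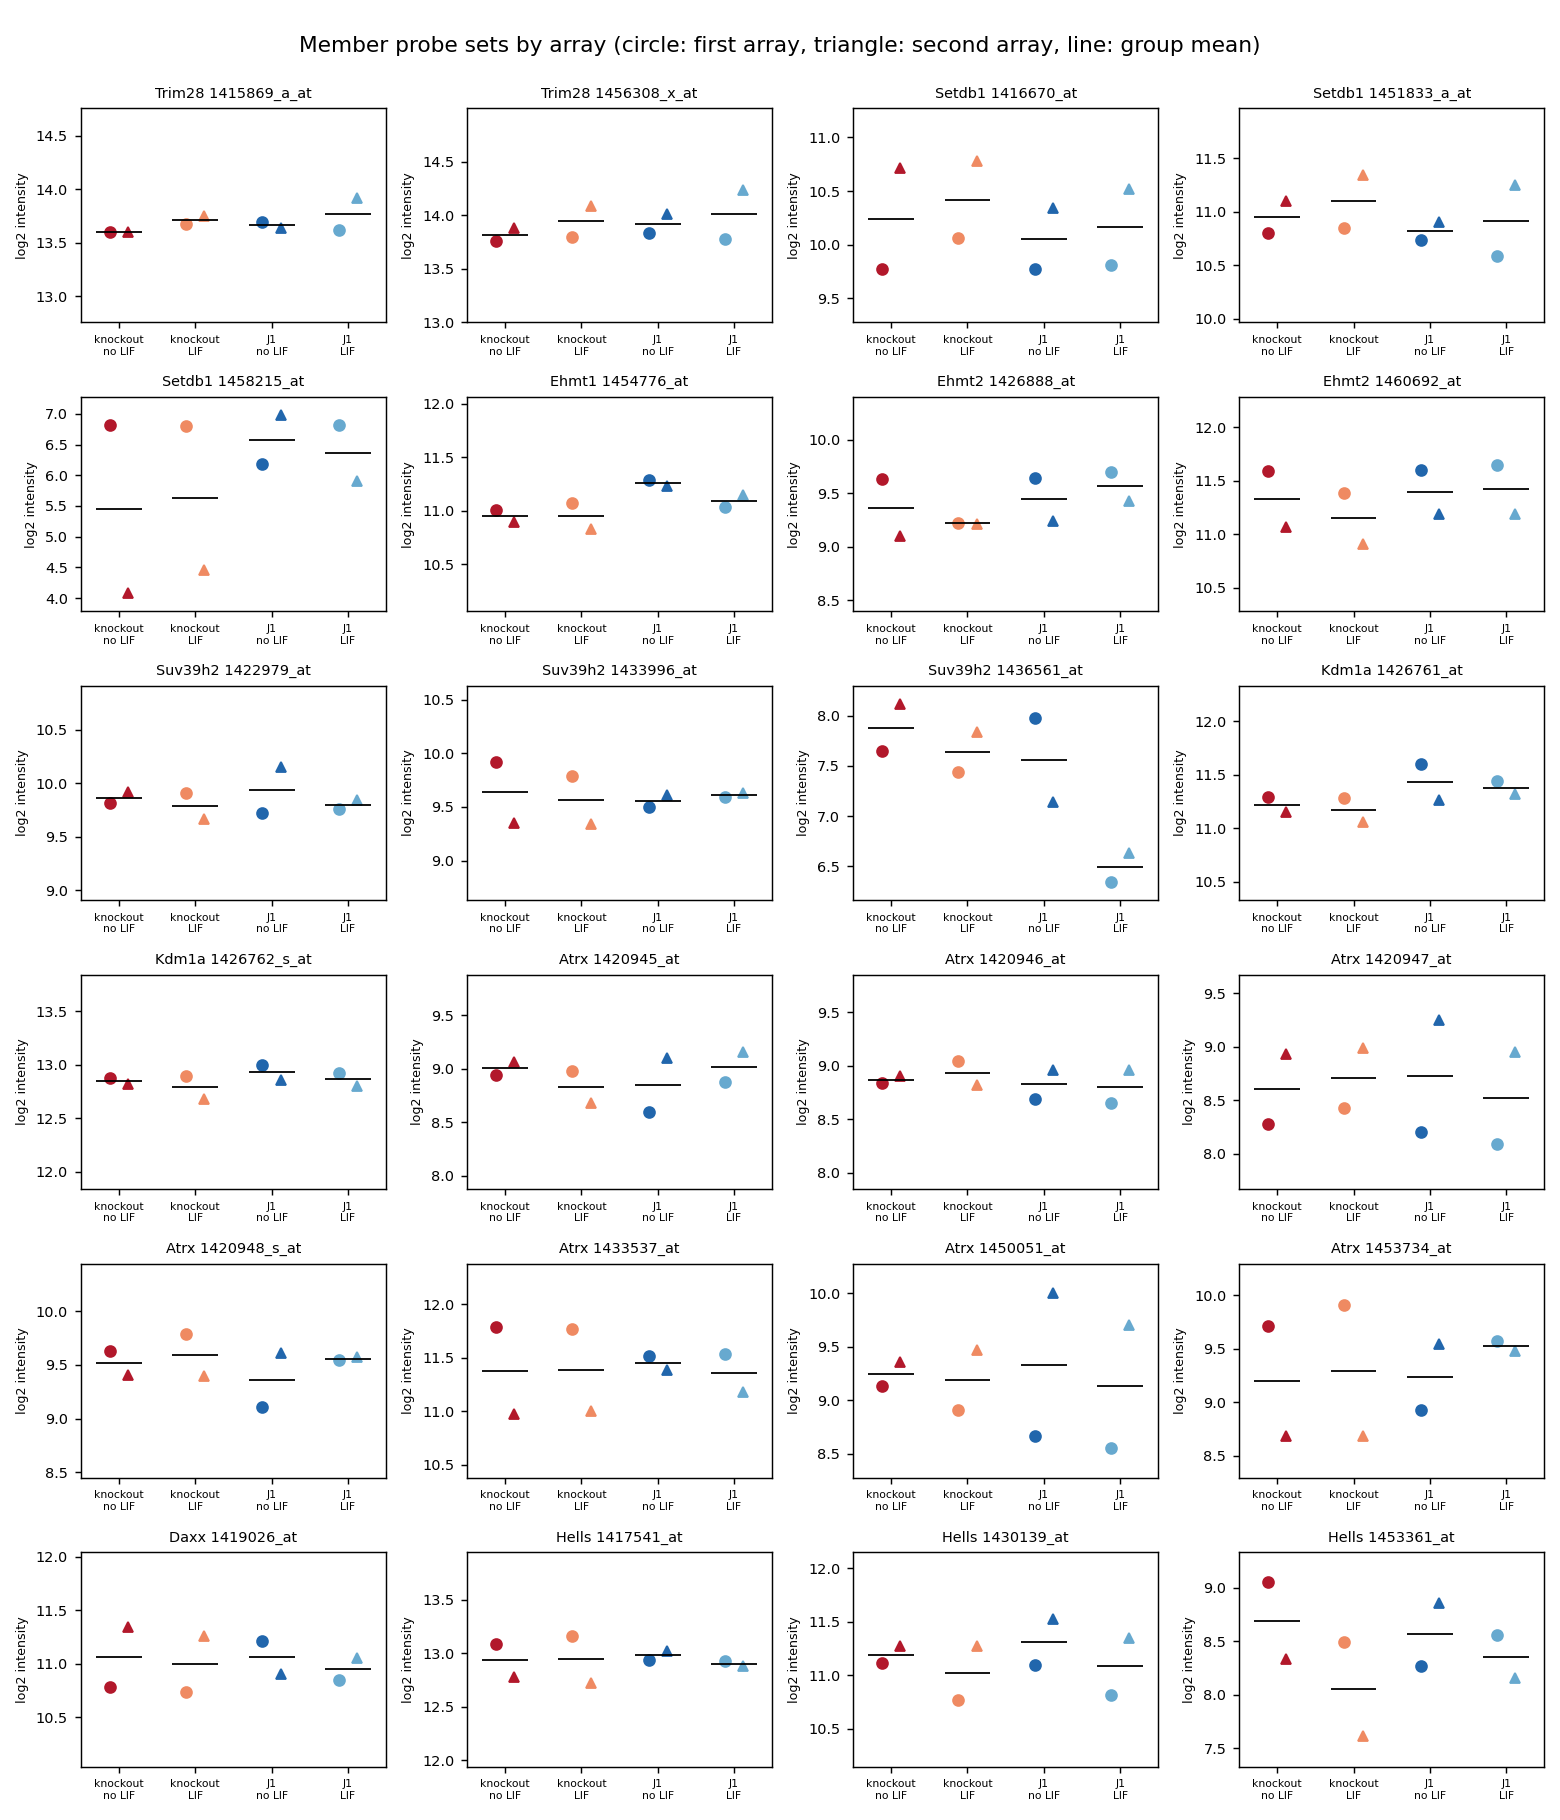
Log2 intensity of each of the 24 repressor probe sets on each array (y axis), by group (x axis), with circles for first arrays, triangles for second arrays and a line at the group mean; each panel has its own y range. Circles and triangles are often farther apart within a group than the group means are from each other, and Suv39h2 1436561_at has its J1 arrays with LIF at 6.34 and 6.64, below the other 6.

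Second and first arrays differed more than either condition did on most of the repressor probe sets. The second-minus-first difference, averaged over the 4 groups, was larger in size than both the genotype and the LIF difference on 17 of 24 probe sets (70.8%), against 46.3% of all probe sets tested and 52.5% of the 21010 whose mean log2 was 7 or above. The median size over the 24 was 0.25 for second minus first, 0.087 for genotype and 0.084 for LIF. Its sign was the same in all 4 groups on 11 of 24 (45.8%), against 27.9% of all probe sets and 37.3% of those with a mean of at least 7. The 4 second arrays lay above the 4 first arrays on 6 of 24, where 7.15% of all probe sets did, and below them on 3, where 5.2% did. The 6 were Trim28 1456308_x_at (0.26), Setdb1 1416670_at (0.73) and 1451833_a_at (0.41), Atrx 1420947_at (0.78) and 1450051_at (0.82), and Hells 1430139_at (0.41). The 3 were Ehmt2 1460692_at (-0.47), Kdm1a 1426762_s_at (-0.13) and Atrx 1433537_at (-0.51). Probe sets of 1 gene went both ways: Atrx ran from -0.51 to 0.82, Hells from -0.35 to 0.41 and Setdb1 from -1.30 to 0.73. The ratio of the 3' to the 5' control probe set of Gapdh moved with the same split, from 0.727 to 0.762 on second arrays and from 0.783 to 0.810 on first arrays, whereas the same ratio for Actb did not separate them, at 1.20 to 1.28 on second arrays and 1.18 to 1.21 on first arrays. Fibroblast or feeder markers (9 genes) also moved with the split, with means of 6.32 to 6.85 on second arrays and 6.99 to 8.10 on first arrays. The part of either in these differences was not tested.

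**Figure D3:**
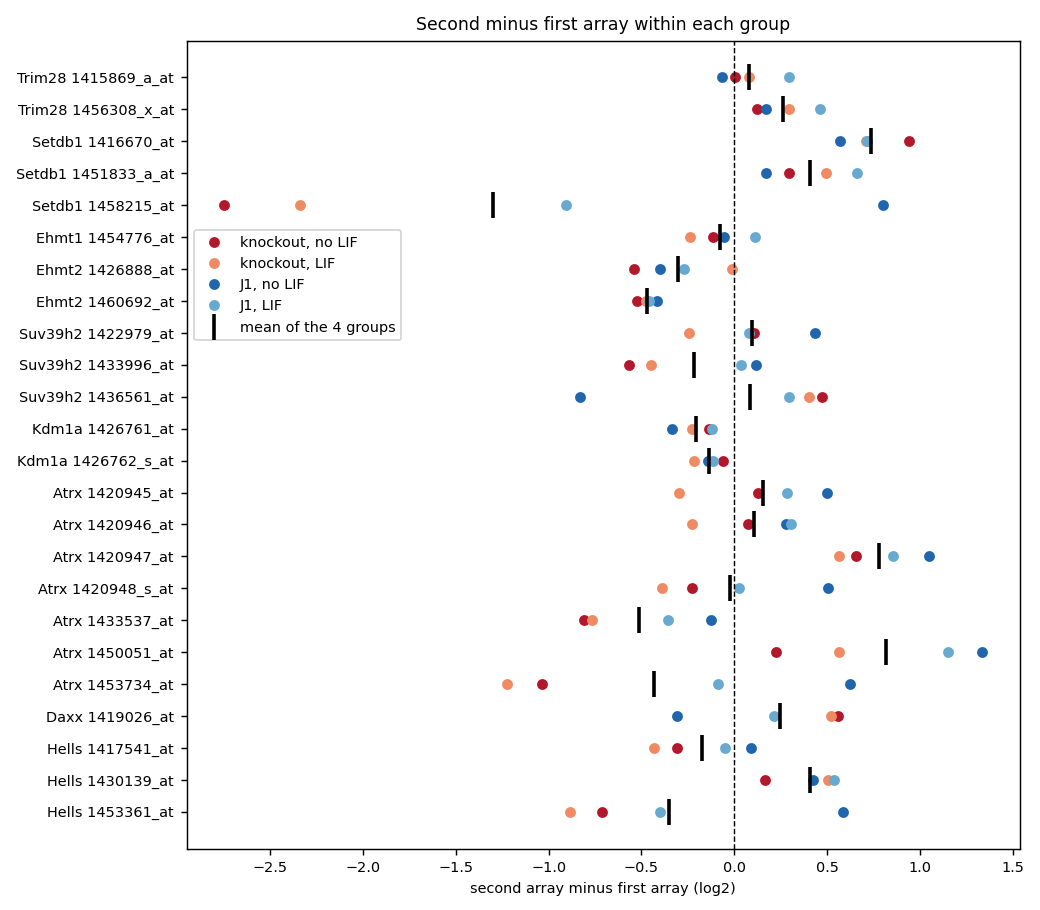
Second minus first array in log2 for each repressor probe set, with 1 point per group and a bar at the mean of the 4 groups; the dashed line is 0. Setdb1 1416670_at and Atrx 1450051_at have all 4 points above 0, while Atrx 1433537_at and Ehmt2 1460692_at have all 4 below.

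The genotype difference was also taken within the second arrays and within the first arrays. Its sign was opposite on 13 of 24 probe sets, against 48.3% of all probe sets tested, and 12 of the 13 were negative on second and positive on first arrays, a pattern that 23.2% of all probe sets had. All 7 Atrx probe sets were among these 12. Their knockout-minus-J1 differences were -0.83 to -0.095 within second arrays and 0.20 to 0.57 within first arrays. They read the RNA of the same 8 arrays and are not replicates of one another. Suv39h2 1433996_at (-0.27 and 0.31) and Hells 1453361_at (-0.53 and 0.36) had the same turn of sign, and Daxx had the reverse (0.32 and -0.27). For Trim28, Ehmt1, Ehmt2 and Kdm1a the sign was negative in both, from -0.32 to -0.084 within second arrays and from -0.24 to -0.023 within first arrays over their 7 probe sets. For LIF the sign was opposite on 14 of 24, against 46.8% of all probe sets. Neither split has replicates within a group, so these values carry no test.

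Partners of the repressors were examined as lists, with 0 probe sets called in either averaged comparison on any of them. The partners of TRIM28 and SETDB1, 33 probe sets of 12 measured genes, had a median genotype difference of -0.045, with 14 positive and 19 negative. Atf7ip 1454973_at, which stabilises SETDB1, read 9.18 and 9.24 in knockout cells without LIF and 9.14 and 8.79 with LIF, against 9.40 and 9.72 and then 9.52 and 9.75 in J1 cells. On this probe set the knockout arrays all lay below the J1 arrays, as they did on 1.74% of all probe sets. The difference of -0.51 (SE 0.18) was not called (limma adjusted p = 0.913). The other Atf7ip probe sets had differences of the opposite sign, 0.60 for 1446323_at and 0.22 for 1449192_at. For LIF the smallest p on the list was that of Trim33 1459264_at, a relative of TRIM28 with low signal here, at -1.60 (SE 0.94). The other Trim33 probe sets, 1426954_at and 1455189_at, had higher signal and LIF differences of the opposite sign, 0.10 and 0.23. On the list of the HUSH complex, which silences integrated elements, and its partners, 2 of 10 probe sets were positive for genotype. The median was -0.046. Of the 10, Resf1 gave 4 and Morc2a gave 1, both counted here as partners, and Fam208a of the complex had no probe set. The HUSH subunit Mphosph8, a reader of methylated H3K9, had a genotype difference of -0.22 (SE 0.20) on 1418388_s_at and a LIF difference of -0.16 (SE 0.19) on 1418387_at. On 1418387_at and 1427524_a_at the Mphosph8 genotype differences were 0.11 and -0.011. On 1418388_s_at and 1427524_a_at its LIF differences were positive, 0.011 and 0.16. The partners of the H3K9 methyltransferases had a median of 0.011 over 19 probe sets, with 10 positive and 9 negative. Zfp644, a zinc finger partner of EHMT1 and EHMT2, had 0.61 (SE 0.28, not called) on 1439769_at, which the naming rule picked. Its other 5 probe sets did not share this: 4 lay between -0.36 and -0.23 and 1449691_at was at 0.066. Prdm16 1440870_at, of the PRDM family, had a LIF difference of 0.59 (SE 0.28, not called), and the other 3 Prdm16 probe sets ranged from -0.18 to 0.67.

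The KDM1A complex had a genotype median of 0.0014 over 26 probe sets, with -0.29 (SE 0.19) for Phf21a 1418390_at. The other Phf21a probe sets had genotype differences of the opposite sign, 0.057, 0.015 and 0.25. The histone H3.3 list had a genotype median of -0.0087 over 18. There Ubn2 1430056_at of the HIRA chaperone complex had 0.49 (SE 0.18, not called), while its other probe sets had 0.0076, -0.14 and -0.15. Ubn1 1433780_at, the related subunit, had a LIF difference of 0.61 (SE 0.47), against 0.22 on 1438401_at. The H3K9 demethylases had a genotype median of 0.026 over 22 probe sets, and a LIF median of 0.11. Kdm7a 1459820_at, a demethylase of H3K9 and H3K27, had low signal and differences of -1.29 (SE 0.34) for genotype and -1.02 (SE 0.34) for LIF. Its values were 3.21 and 2.91 in knockout cells without LIF and 2.10 and 3.35 with LIF, against 2.93 and 3.06 in J1 cells without LIF and 5.06 and 5.69 with LIF. Only the J1 arrays with LIF lay above a log2 of 4. The probe set thus passed the filter only through the group where it was high, and its 2 differences are no evidence of a change. Neither was called (limma adjusted p = 0.866 and 0.9999). The other 3 Kdm7a probe sets tested had genotype differences from -0.23 to 0.23 and LIF differences from 0.053 to 0.60.

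Without LIF, 22 of 26 probe sets of the KDM1A complex had a positive difference, with a median of 0.13, and 0 were called. Phf21a 1418391_at, a reader of unmethylated H3 lysine 4 in that complex, had values of 9.0 and 8.94 in knockout cells without LIF and 9.05 and 8.88 in J1 cells without LIF, against 8.30 and 8.32 in knockout cells with LIF and 8.36 and 8.04 in J1 cells with LIF. Its 4 arrays without LIF lay above the 4 with LIF in both lines, by 0.71 (SE 0.16, limma adjusted p = 0.976). Such a separation was seen on 1.02% of all probe sets. The other Phf21a probe sets, 1418390_at, 1435619_at and 1441145_at, had LIF differences of 0.50, 0.017 and 0.57. HELLS partners and DNA methylation enzymes, 18 probe sets of 8 genes, had 17 positive LIF differences with a median of 0.25 and 17 negative genotype differences with a median of -0.21. Of all 43439 probe sets tested, 21258 had a positive LIF difference and 20802 a negative genotype difference. The list was chosen with earlier results of these data known. Dnmt3a gave 5 of its 18 probe sets and Dnmt1 gave 3, and probe sets of 1 gene are not independent. Without adjustment, 2 of 18 reached p under 0.05 for LIF, against 4.02% of all probe sets, and 3 of 18 for genotype, against 5.27%. Among them Dnmt3a 1423064_at, a de novo DNA methyltransferase, read 10.83 and 10.71 in knockout cells without LIF and 10.16 and 9.88 with LIF, against 11.27 and 11.17 in J1 cells without LIF and 10.72 and 10.62 with LIF. Within each culture its knockout arrays lay below its J1 arrays. The genotype difference was -0.55 (SE 0.16, limma adjusted p = 0.871) and the LIF difference was 0.65 (SE 0.16, adjusted p = 0.9999). All 5 Dnmt3a probe sets had the same 2 signs, with genotype differences from -0.58 to -0.26.

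**Figure D4:**
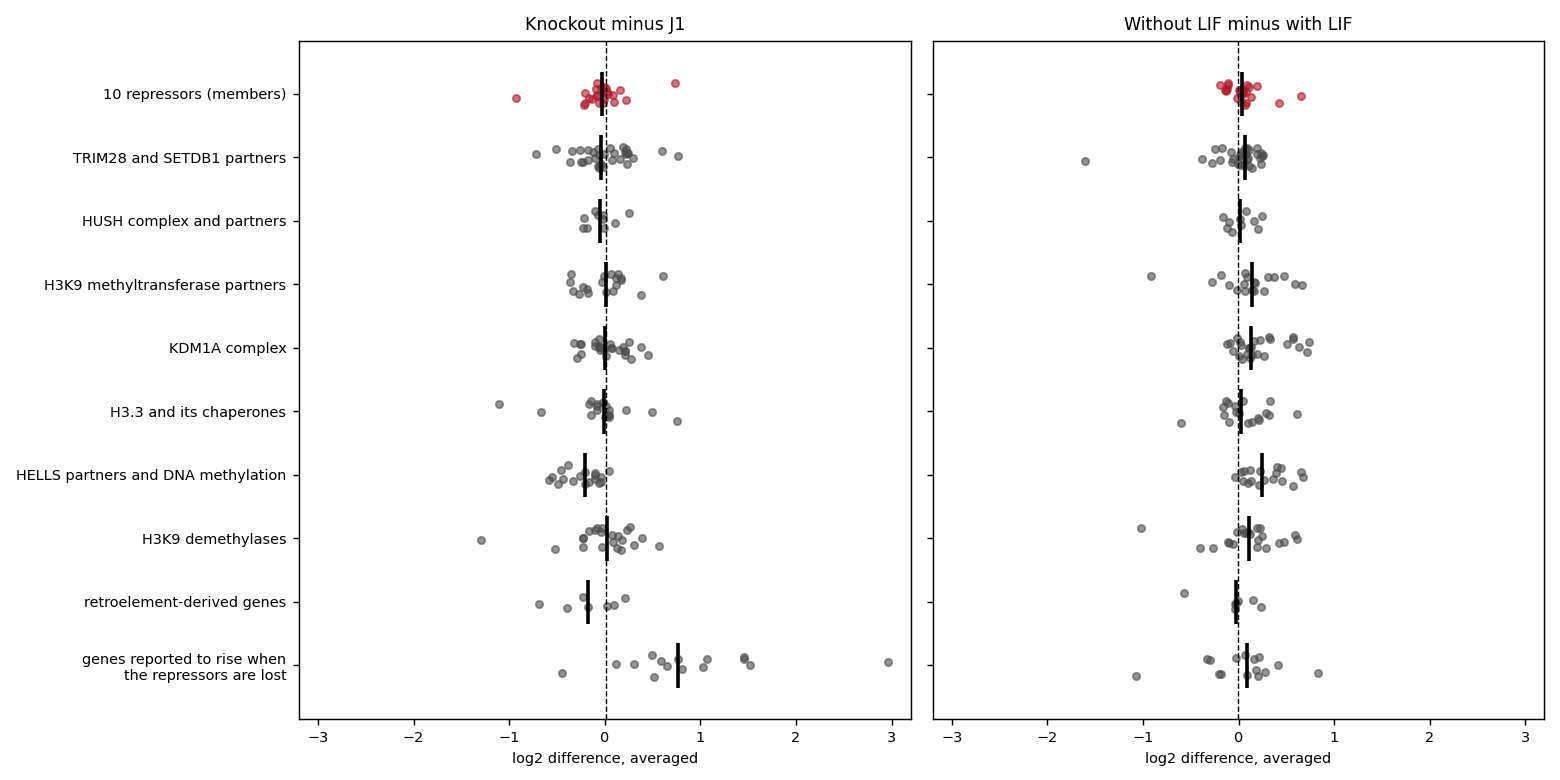
Averaged log2 differences of the repressor probe sets and of the partner lists, 1 point per probe set with a bar at the list's median, knockout minus J1 on the left and without minus with LIF on the right; the dashed line is the median of all probe sets tested. The repressors centre at -0.033 and 0.038, and the list of genes reported to rise when the repressors are lost centres at 0.76 on the left.

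A list of retroelement-derived genes and of factors that restrain elements, 7 probe sets of 6 genes, had a median genotype difference of -0.18 with 3 positive and 4 negative. Mov10 1416380_at, a helicase that restricts retroelements, had -0.40 (SE 0.20, not called), and its other probe set had -0.23. Erv3 1460480_at, of retroviral origin, had a LIF difference of -0.57 (SE 0.70). Genes reported to rise in embryonic stem cells that lose these repressors, 15 probe sets of 13 genes, had 14 positive and 1 negative genotype differences with a median of 0.76, against 0.016 over all probe sets. None was called, and 9 of 15 reached p under 0.05 without adjustment, where 5.27% of all probe sets did. This list was drawn up with earlier results of these arrays known, so its direction is not independent evidence. Tex101, a germ cell surface protein, read 5.06 and 5.26 in knockout cells without LIF and 7.27 and 7.60 with LIF, against 5.07 and 4.74 and then 4.99 and 4.56 in J1 cells. The 2 knockout arrays with LIF stood above the other 6, and the averaged genotype difference was 1.45 (SE 0.20, limma adjusted p = 0.610). Its averaged LIF difference was -1.07 (SE 0.20, adjusted p = 0.775). Other differences on the list were 2.96 for Tcstv3, 1.52 for Usp17la, 1.45 and 1.02 for the probe sets of Zfp352, 0.76 and 0.58 for those of Dazl, and -0.45 for Magea5. Several of these had low signal. The mean log2 over the 8 arrays was 5.16 for Tcstv3, 5.57 for Tex101, 5.87 for Magea5 and 6.1 for Zfp352 1425880_x_at. It was 8.75 for Usp17la, and 8.56 and 8.74 for the Dazl probe sets. With a difference of 2.96 around a mean of 5.16, the J1 mean of Tcstv3 lay under the filter's log2 of 4. Its probe set may have passed the filter through the knockout arrays alone, so its difference is no evidence of a change. It remains in the counts and the median above. Tcstv1, Tcstv3 and Usp17la belong to families of near-identical copies, so their probe sets may read several of them. None of the 15 probe sets of this list and none of the 24 repressor probe sets was called. A link between the list and the repressors was not tested.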

How the data were processed

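RNA of 8 samples was hybridised to single-colour Affymetrix arrays, 2 in each of 4 groups assigned from titles. The deposited values are linear intensity per probe set. GCRMA is named in the submitters' processing notes, with no version or role. The 2% trimmed mean of every deposited column was 500, so the scaling step is not known, and no detection value was used. The number of arrays limits the precision. Intensities were taken to log2 with no pseudocount, leaving out 64 control probe sets and those under a log2 of 4 in more than 6 arrays. limma 3.58.1 in R 4.3.3 was fitted over 43439 probe sets with 1 mean per group and eBayes. Calls needed a Benjamini-Hochberg adjusted p under 0.05 in 1 of 7 comparisons. The fit was tested on simulated data. Genes were named from the platform annotation, using probe sets with 1 symbol.

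All probe sets of the 10 repressors and Zfp42 were named, and from each partner list the probe set of smallest unadjusted p in each averaged comparison. Other list members were named after their values were seen. The repressors and the lists were chosen with earlier results of these data known. Alternatives covered the filter, quantile normalization, a pseudocount of 16, a trended robust prior, only the 4 arrays compared, an adjusted p under 0.1, the letter r as a replicate block, 1 value per gene, and each array left out. No label says whether the letter r pairs arrays. Second-minus-first differences correlated at 0.0496 to 0.198 between groups, with 2 of 6 pairs under 0.1. These correlations over all probe sets cannot decide it. On 7.15% of probe sets all second arrays lay above all first arrays, and on 5.2% below. The main fit did not use the letter as a block, so any shift between first and second arrays stays in its spread and can widen its intervals. At most 0.00222% of values were identical between arrays of a group. Plots used matplotlib 3.10.9 (Python 3.11.15).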

Additional observations from a re-analysis of the deposited data

How the results depend on the processing

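No repressor probe set was called under any alternative run: the filters, quantile normalization, the pseudocount, the prior, the looser threshold, the replicate block and each array left out were run for all 7 comparisons, and only the 4 arrays compared for 4 of them. The repressor medians of the 2 averaged comparisons, also with 1 value per gene, kept within 1 within-group SD (0.11) of their values above, and the list medians were not recomputed. Leaving out each array gave medians of -0.09 to 0.02 for genotype and -0.01 to 0.09 for LIF. Of 48 averaged differences, 32 changed sign without at least 1 array and 6 did with quantile normalization; none was past the threshold, and the cause was not tested. Quantile normalization gave 0.015 for Atrx 1450051_at and 0.012 for Hells 1417541_at (genotype), and 0.0047 for Trim28 1456308_x_at, -0.025 for Ehmt2 1426888_at, -0.023 for Suv39h2 1433996_at and -0.028 for Atrx 1420945_at (LIF). The ranges over the arrays left out follow for the 32.

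For the genotype difference these ranges were Trim28 1415869_a_at -0.13 to 0.014, 1456308_x_at -0.20 to 0.031, Setdb1 1416670_at -0.013 to 0.46, 1451833_a_at -0.0075 to 0.32 and Suv39h2 1422979_at -0.15 to 0.067, 1433996_at -0.12 to 0.16. They were Atrx 1420945_at -0.14 to 0.11, 1420947_at -0.23 to 0.30, 1420948_s_at -0.031 to 0.22, 1433537_at -0.23 to 0.18, 1450051_at -0.35 to 0.32, 1453734_at -0.44 to 0.17 and Daxx 1419026_at -0.11 to 0.17. They were further Hells 1417541_at -0.11 to 0.10, 1430139_at -0.22 to 0.048, 1453361_at -0.31 to 0.13. For the LIF difference they were Trim28 1456308_x_at -0.22 to 0.0098, Setdb1 1416670_at -0.38 to 0.091, 1451833_a_at -0.29 to 0.045, 1458215_at -0.67 to 0.71 and Ehmt2 1426888_at -0.12 to 0.15, 1460692_at -0.055 to 0.21. They were Suv39h2 1433996_at -0.13 to 0.15 and Kdm1a 1426761_at -0.033 to 0.13. They were further Atrx 1420945_at -0.12 to 0.13, 1420946_at -0.10 to 0.055, 1420947_at -0.21 to 0.31, 1433537_at -0.16 to 0.24, 1450051_at -0.21 to 0.46, 1453734_at -0.50 to 0.11, Daxx 1419026_at -0.057 to 0.22 and Hells 1417541_at -0.074 to 0.14. The other 16 kept their sign. Their genotype ranges were Setdb1 1458215_at -1.62 to -0.25, Ehmt1 1454776_at -0.28 to -0.16, Ehmt2 1426888_at -0.35 to -0.077 and 1460692_at -0.30 to -0.039, Suv39h2 1436561_at 0.53 to 0.94, Kdm1a 1426761_at -0.29 to -0.12 and 1426762_s_at -0.13 to -0.024, and Atrx 1420946_at 0.012 to 0.16. Their LIF ranges were Trim28 1415869_a_at -0.18 to -0.034, Ehmt1 1454776_at 0.025 to 0.14, Suv39h2 1422979_at 0.0001 to 0.22 and 1436561_at 0.45 to 0.865, Kdm1a 1426762_s_at 0.0085 to 0.12, Atrx 1420948_s_at -0.26 to -0.0092, and Hells 1430139_at 0.063 to 0.33 and 1453361_at 0.20 to 0.65. Zfp42 ran from -0.30 to -0.13 for genotype. Among the partners, the ranges that reached more than 1.5 times from the value with all arrays were Zfp644 1439769_at 0.36 to 0.85, Mphosph8 1418388_s_at -0.35 to -0.093 and Phf21a 1418390_at -0.43 to -0.16 for genotype, and Trim33 1459264_at -2.48 to -0.73, Mphosph8 1418387_at -0.30 to -0.024, Prdm16 1440870_at 0.33 to 0.85, Ubn1 1433780_at 0.25 to 0.97 and Erv3 1460480_at -1.12 to -0.011 for LIF.

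Taking the letter r of the titles as a replicate block, 0 repressor probe sets were called. With the block and a mean log2 of at least 10 together, chosen after seeing the data, limma called 38 of 6516 probe sets for the averaged genotype and 0 of 12 of the repressors. There 4 of 12 reached p under 0.05 without adjustment, against 14.4% of the 6516: Setdb1 1416670_at, Kdm1a 1426761_at, Ehmt1 1454776_at and Ehmt2 1460692_at, with adjusted p of 0.274 to 0.322. With 2 arrays a group the limma intervals are wide, and signal over background could not be judged without detection values, which touches Setdb1 1458215_at most.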
